A study of Mus musculus with 3 samples.

Results

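Ependymal cells carrying RNA of Col6a5, Nrxn3, Anxa8 and Krt15 were picked from 1 single-cell library of mouse hippocampus by their UMIs, the unique molecular tags that count RNA molecules. A barcode was kept with at least 500 genes and at most 15% mitochondrial UMIs, which left 6485 of 6672 barcodes. It was taken as ependymal with at least 5 UMIs of Foxj1, Ccdc153, Tmem212, Dynlrb2 and Rsph1 together and with Ttr, the transthyretin gene of the choroid plexus, under 2% of its UMIs. An ependymal cell was a member if it had at least 1 UMI of Col6a5, Nrxn3, Anxa8 and Krt15 together, and more of these than of Zfp804b, Npy, Rspo3, Clec3b and Plac9 together. There were 229 members among 661 ependymal cells, a share of 34.6% (31.0 to 38.4), and 432 other ependymal cells. Astrocytes, set beside them, were 140 barcodes with at least 10 UMIs of 6 astrocyte genes and few UMIs of other cell types.

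All these cells came from 1 pool of 5 Aldh1l1CreERT2;Rosa26-LSL-tdTomato mice, in which tamoxifen switches on tdTomato in cells with the Aldh1l1 driver, active mainly in astrocytes. Their hippocampus had received a Cre-dependent AAV, AAV-TIGRi-Hopx, that lowers Hopx and carries EGFP, and tissue was taken 3 weeks after tamoxifen and sorted for both reporters. The sources used here give no age or sex. Members, other ependymal cells and astrocytes therefore share genotype, vector, time and library, the barcodes carry no mark of their mouse, and no library without the vector is analysed. The series also has an anti-Flag and an IgG chromatin sample of primary astrocytes, not analysed here. Only 1 library was read, so no difference could be checked against replicates and no test was run. Levels are summed UMIs scaled to 1000000 UMIs of the group, written CPM, and ranges in parentheses are exact 95% intervals that cover counting error only.

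Ependymal cells line the brain ventricles as a sheet of cells with tufts of motile cilia, whose beating moves cerebrospinal fluid. Foxj1, with RFX factors, switches on the genes that build the cilia. Ependymal cells differ along the ventricular wall in the developmental patterning genes they keep and in what they secrete, and like astrocytes they descend from radial glia.

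Members had a median of 5761 UMIs per cell (712 to 23677), other ependymal cells 6133 and astrocytes 3316.5. Mitochondrial UMIs had a median of 1.42% in members, 1.74% in other ependymal cells and 4.53% in astrocytes. Scrublet called 16 members (6.99%) and 35 other ependymal cells (8.10%) as doublets, which were kept in the values below.

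The marker genes themselves chose the members, so their levels describe the rule. Nrxn3 (ENSMUSG00000066392), a presynaptic adhesion molecule, had 1483 of the 2760 marker UMIs of members, or 982 CPM, against 257 CPM in other ependymal cells. At least 1 Nrxn3 UMI was seen in 90.0% of members. Krt15 (ENSMUSG00000054146), a type I keratin of stratified epithelia, had 447 CPM in members and 187 CPM in other ependymal cells, and was seen in 76.0% of members. Col6a5 (ENSMUSG00000091345), a chain of the microfibril-forming collagen VI, had 282 CPM in members and 91.0 CPM in other ependymal cells, and was seen in 55.9% of members. Anxa8 (ENSMUSG00000021950), an annexin that binds membranes in the presence of calcium, had 117 CPM in members and 54.6 CPM in other ependymal cells, and was seen in 46.3% of members. A member had a median of 10 marker UMIs (1 to 41). Of the members, 21 showed 1 of the 4 genes, 80 showed 2, 79 showed 3 and 49 showed all 4. In the 140 astrocytes Nrxn3 had 34 UMIs, or 57.9 CPM, in 15 cells (10.7%), and Col6a5, Anxa8 and Krt15 had 0. In 3033 microglia, which should lack all 4, each of the 4 was seen in at most 0.692% of cells at a median of 6391 UMIs.

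The rule cut through a continuous range of cells, as the plot of marker UMIs against UMIs of the opposing genes shows. Members inside the rule by 1 UMI numbered 30, and 47 were inside by 2. Outside it, 32 cells were 1 UMI short, 33 had equal counts above 0 and 6 had no UMI of either set. Members kept a median of 5 UMIs of the opposing genes, and other ependymal cells kept a median of 2 marker UMIs. Plac9, a small secreted protein, had 758 CPM in members, where 203 of 229 cells held it, and 1872 CPM in other ependymal cells. When each marker was left out in turn, its level in the cells picked by the other 3 was a value its own gate had not used. Its ratio to the remaining ependymal cells was then 1.30 (1.10 to 1.53) for Col6a5, 1.36 (1.21 to 1.52) for Nrxn3, 1.76 (1.41 to 2.19) for Anxa8 and 1.28 (1.13 to 1.45) for Krt15. Each marker was thus higher in cells picked by the other 3, by less than 2-fold. All cells so picked were members, and members lost with the marker were then counted among the remaining cells. The size of these ratios was therefore partly fixed by the rule. The picked cells were also still chosen against the opposing genes, Plac9 among them, and the part of this in the ratios was not tested. They numbered 188 without Col6a5, 94 without Nrxn3, 213 without Anxa8 and 162 without Krt15, against 229 members.

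**Figure D1:**
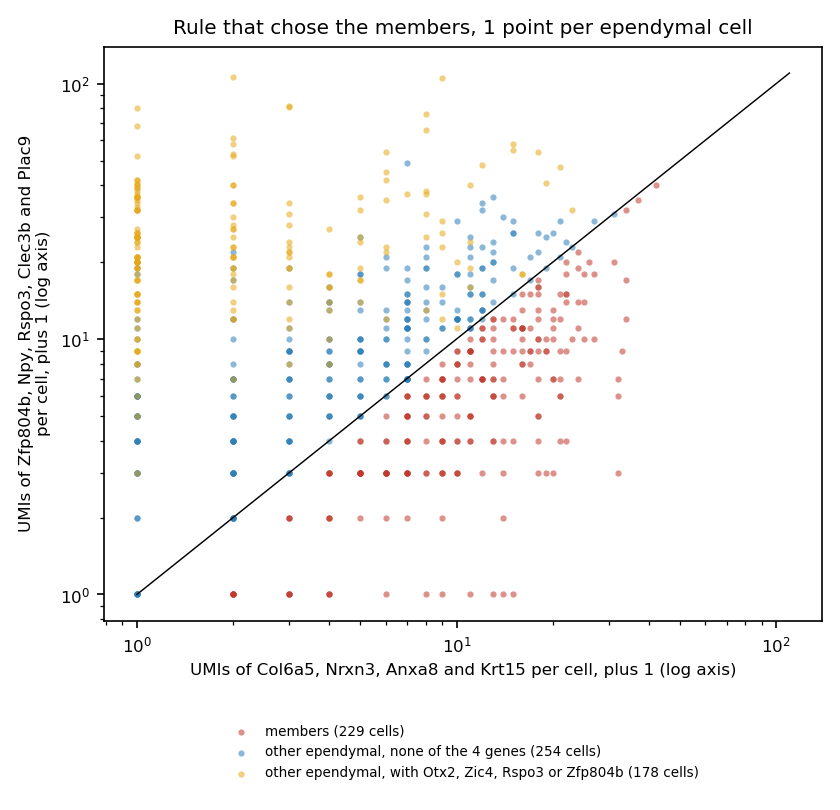
Each point is 1 ependymal cell, with its UMIs of the 4 marker genes on the x axis and of the 5 opposing genes on the y axis, each plus 1 on a log axis. The 229 members lie below the line of equal counts without a gap to the 432 other cells, and cells with Otx2, Zic4, Rspo3 or Zfp804b, 178 of the 432, lie mostly at the upper left. Rspo3 and Zfp804b are themselves counted on the y axis.

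Members with and without a Col6a5 UMI, 128 and 101 cells, were also compared on genes outside the rule. Calb1, the calcium buffer calbindin, had 449 CPM in members with Col6a5 and 358 CPM in members without it, a ratio of 1.25 (1.06 to 1.49). The intervals of this ratio included 1 for Gsn, Nr2f1, Itih5 and Synpr, described below. Col6a5 is itself a gene of the rule, and the marker genes are not compared in this way because the rule ties them to each other. Members with Col6a5 also had more of the opposing gene Plac9, a ratio of 1.33 (1.17 to 1.51), and the part of the rule in the Calb1 ratio was not tested.

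The ependymal identity held outside the gate. A set of 9 further ependymal genes, among them Mia, Rarres2, Spag17 and Ak7, was fully detected and summed to 6059 CPM in members, against 6369 CPM in other ependymal cells and 187 CPM in astrocytes. A set of 10 astrocyte markers summed to 2294 CPM in members, against 1982 CPM in other ependymal cells and 21318 CPM in astrocytes. A set of 9 tanycyte markers summed to 337 CPM in members, against 271 CPM in other ependymal cells and 407 CPM in astrocytes. Of these, Scn7a was at 208 CPM in members and 146 CPM in other ependymal cells, and Lhx2 at 70.2 CPM and 47.8 CPM. Rax, Crym and Gpr50 were each at 0 of 229 members, which allows a share of cells with a UMI of up to 1.60%. A set of 8 neural stem and progenitor markers summed to 392.1 CPM in members, against 521 CPM in other ependymal cells and 399 CPM in astrocytes. Riiad1 made up 568 of the 592 UMIs of this set in members, Sox11 had 18 and Eomes 5, and Dcx, Thbs4 and Top2a had 0. Ttr was at 215 CPM in members and at 203 CPM in microglia, which do not make it.

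RNA of other cell types was uneven between the groups. Oligodendrocyte markers, all 5 detected, summed to 205 CPM in members and 45.2 CPM in other ependymal cells, with 0 to 244 UMIs per member and 0 to 6 per other cell. Endothelial markers, all 5 detected, summed to 299 CPM in members and 139 CPM in other ependymal cells, with 0 to 160 UMIs per member and 0 to 68 per other cell. Microglial markers, all 5 detected, summed to 327 CPM in members and 578 CPM in other ependymal cells, with 0 to 135 UMIs per member and 0 to 148 per other cell. At least 5 such UMIs were found in 2 members and 3 other cells for oligodendrocytes, 10 members and 12 other cells for endothelial cells, and 6 members and 20 other cells for microglia.

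Against the other ependymal cells, few genes differed by 2-fold. Of 4938 genes outside the gates at 50 CPM or more in the higher group, 29 (0.587%) were at least 2-fold higher in members and 30 (0.608%) at least 2-fold lower. The 15 leading genes in each direction are those with the largest ratios. Of the 15 higher ones, 6 were each seen in at least 62 members (Slc6a15, Synpr, Slc26a3, Itih5, Nkd2 and Lama3), and 9 are known from oligodendrocytes, vessels or neurons and are treated apart below (among them Mal, Ptprb, Ctla2a, Slco1a4, Itm2a, Cxcl12, Fn1 and Pcdh9). Ratios are also given for cells with little RNA of other types, fewer than 5 UMIs each of microglial, endothelial, oligodendrocyte and fibroblast markers. This restriction, chosen after the data were seen, kept 210 members and 398 other ependymal cells.

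Slc6a15 (ENSMUSG00000019894), a transporter of branched-chain amino acids and proline, had 132 UMIs or 87.4 CPM in members, against 102 UMIs or 33.4 CPM in other ependymal cells, a ratio of 2.62 (2.01 to 3.43). It was seen in 36.7% of members, against 18.8% of other ependymal cells, 0 of 140 astrocytes, which allows up to 2.60%, and 1 of 3033 microglia. With cells thinned to 2000 UMIs the shares were 13.3% of members and 5.35% of other cells. In cells with little RNA of other types the ratio was 2.58 (1.95 to 3.42). Slc26a3, a chloride and bicarbonate exchanger, had 58.3 CPM in members and 23.6 CPM in other ependymal cells, a ratio of 2.48 (1.79 to 3.43). Synpr, synaptoporin, a synaptic vesicle membrane protein, had 63.6 CPM in members and 24.9 CPM in other ependymal cells, a ratio of 2.56 (1.87 to 3.50). The ratios of both transporters and Synpr were thus above 2, though the intervals of Slc26a3 and Synpr reached below 2. With cells thinned to 2000 UMIs and gated again, Slc6a15 and Slc26a3 were each at 1.83 (1.01 to 3.27). Synpr was then at 2.05 (1.12 to 3.73).

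The other 3 of these 6 genes code for matrix proteins and a signalling regulator. Itih5, a chain of the inter-alpha-trypsin inhibitors that bind hyaluronan, had 279 CPM in members and 116 CPM in other ependymal cells, a ratio of 2.42 (2.09 to 2.79), and was seen in 158 of 229 members and 176 of 432 other cells. Lama3, a laminin alpha chain of epithelial basement membranes, had 59.6 CPM in members and 26.2 CPM in other ependymal cells, a ratio of 2.28 (1.67 to 3.12). Nkd2, which binds Dishevelled and dampens Wnt signalling, had 53.7 CPM in members and 22.9 CPM in other ependymal cells, a ratio of 2.34 (1.68 to 3.27). In cells with little RNA of other types all 6 ratios lay between 2.23 (Itih5) and 2.58 (Slc6a15).

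Further genes, chosen after their values were seen, were also higher in members. Gsn, gelsolin, which severs actin filaments, had 456 CPM in members and 203 CPM in other ependymal cells, a ratio of 2.25 (2.02 to 2.51). Nr2f1, an orphan nuclear receptor that patterns the developing cortex, had 387 CPM in members and 196 CPM in other ependymal cells, a ratio of 1.97 (1.76 to 2.21). Htr5b, a serotonin receptor, had 146 CPM in members and 71.6 CPM in other ependymal cells, a ratio of 2.03 (1.68 to 2.46), with 0 UMIs in astrocytes. Calb1 had 413 CPM in members and 253 CPM in other ependymal cells, a ratio of 1.64 (1.47 to 1.82). Acta2, smooth muscle actin, had 482 CPM in members and 257 CPM in other ependymal cells, a ratio of 1.88 (1.70 to 2.08), and was seen in 169 of 229 members. Acta2 is also one of 5 markers of vessel wall cells, which summed to 543 CPM in members and 302 CPM in other ependymal cells, with 0 to 50 UMIs per member and 0 to 33 per other cell. Of the 820 UMIs of this set in members, 727 were Acta2, 86 Tagln, 5 Rgs5, 2 Vtn and 0 Kcnj8, and the part of vessel wall RNA in the Acta2 ratio was not tested. Against the 254 other ependymal cells with no UMI of Otx2, Zic4, Rspo3 or Zfp804b, described below, the ratios were smaller, at 1.39 (1.24 to 1.56) for Gsn, 1.58 (1.39 to 1.80) for Nr2f1, 1.29 (1.06 to 1.59) for Htr5b, 1.13 (1.01 to 1.27) for Calb1 and 1.51 (1.35 to 1.70) for Acta2.

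For the other 9 leading genes the ratio depended on which cells were left out. In cells with little RNA of other types the ratio was 1.15 (0.53 to 2.37) for Mal, a protein of myelin membranes. For the vessel genes it was 0.77 (0.30 to 1.82) for Slco1a4, an organic anion transporter of the blood-brain barrier, 0.92 (0.47 to 1.75) for Itm2a and 0.99 (0.55 to 1.73) for Cxcl12, a chemokine. Fn1, fibronectin, was at 0.38 (0.14 to 0.87) there, lower in members. Ctla2a stayed higher at 3.44 (1.66 to 7.44) on 22 and 13 UMIs, Pcdh9, a protocadherin, at 1.80 (1.29 to 2.52), and Ptprb was left with 4 UMIs in each group. With the called doublets removed instead, the ratios stayed above 1, at 18.98 (5.89 to 97.4) for Ptprb on 29 and 3 UMIs, 10.3 (4.78 to 25.4) for Ctla2a, 4.03 (2.27 to 7.39) for Slco1a4, 3.37 (2.18 to 5.26) for Itm2a, 3.04 (1.68 to 5.64) for Fn1, 2.75 (1.85 to 4.13) for Cxcl12, 2.04 (1.15 to 3.64) for Mal and 2.02 (1.44 to 2.83) for Pcdh9. The part of vessel and oligodendrocyte RNA in these ratios was not tested further.

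**Figure D2:**
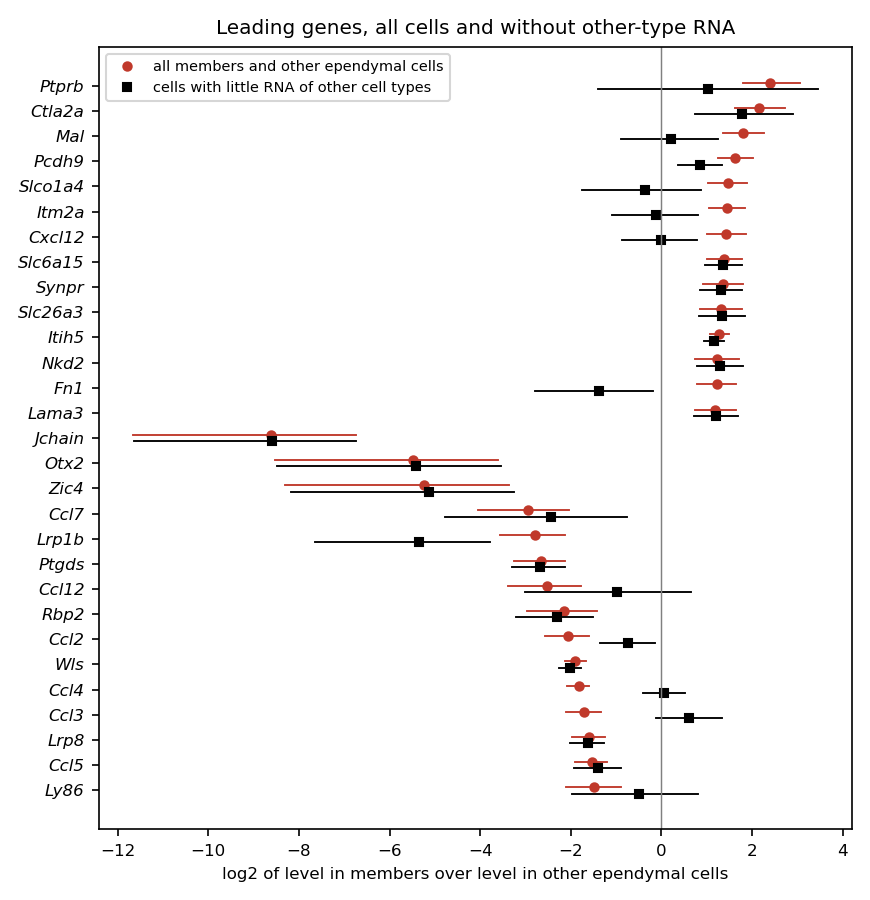
Ratios of the level in members to the level in other ependymal cells, on a log2 axis with exact 95% intervals, for 14 of the 15 leading higher genes and the 15 leading lower genes. Red circles are all cells and black squares are cells with few UMIs of other cell types, where Slc6a15, Synpr, Slc26a3, Itih5, Nkd2 and Lama3 keep their ratio, Fn1 falls below 0 and Mal, Slco1a4, Itm2a and Cxcl12 lie near 0.

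The 3 lowest ratios in members were those of Jchain, an antibody gene treated apart below, and of the patterning factors Otx2 and Zic4. Otx2, a homeodomain factor of the dorsal midline and choroid plexus, had 2 UMIs in members and 181 in other ependymal cells, or 1.33 and 59.2 CPM, a ratio of 0.022 (0.0027 to 0.082). Zic4, a zinc finger factor of the dorsal neural tube, had 2 UMIs in members and 153 in other ependymal cells, a ratio of 0.026 (0.0032 to 0.097). Zic1 and Lmx1a, also factors of the dorsal midline, had 6 and 4 UMIs in members, against 127 and 78 in other ependymal cells. Wls, which carries Wnt ligands to the cell surface, had 116 CPM in members and 433 CPM in other ependymal cells, a ratio of 0.27 (0.23 to 0.31). Lrp8, a receptor for reelin and apolipoprotein E, had 51.0 CPM in members and 155 CPM in other ependymal cells, a ratio of 0.33 (0.26 to 0.42). Ecrg4, a secreted peptide precursor chosen after its values were seen, had 406 CPM in members and 860.4 CPM in other ependymal cells, a ratio of 0.47 (0.43 to 0.52).

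Most RNA of these lower genes lay in a subset of the other ependymal cells. At least 1 UMI of Otx2, Zic4, Rspo3 or Zfp804b was found in 178 of the 432 other cells (41.2%), against 6 of 229 members (2.62%). At least 3 UMIs were found in 106 against 0. Rspo3 and Zfp804b belong to the rule, so part of this contrast was fixed in advance. A UMI of Otx2 or Zic4, which lie outside the rule, was found in 139 other cells and 4 members. The 178 cells had a median of 7475 UMIs and the other 254 a median of 5345. Against the 254 cells, a split added after the data were seen, the ratio in members was 0.86 (0.70 to 1.06) for Wls, 1.34 (0.94 to 1.92) for Lrp8 and 0.87 (0.78 to 0.97) for Ecrg4. Of the 1323 Wls UMIs in other ependymal cells, 1114 were in the 178 cells. By the same comparison 20 genes (0.4%) of 5003 were at least 2-fold higher and 36 (0.72%) at least 2-fold lower. Slc6a15 stayed at 2.30 (1.68 to 3.18) and Synpr at 2.10 (1.47 to 3.05), whereas Itih5 was at 1.67 (1.43 to 1.96), Slc26a3 at 1.65 (1.16 to 2.35), Lama3 at 1.68 (1.19 to 2.40) and Nkd2 at 1.37 (0.97 to 1.94).

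Several of the remaining leading lower genes rested on few cells. Jchain, the joining chain of secreted antibodies, had 2 UMIs in members and 1579 in 15 other ependymal cells, 373 of them in 1 cell. Ptgds, a prostaglandin synthase of the meninges and choroid plexus, had 30 UMIs in members and 384 in other ependymal cells, 311 of them in 1 cell. The chemokines Ccl4 and Ccl3 were at 1.04 (0.75 to 1.43) and 1.53 (0.92 to 2.51) in cells with little RNA of other types, against 0.28 (0.24 to 0.33) for Ccl4 in all cells. Ccl5 was at 0.38 (0.26 to 0.54) there. Ccl2, Ccl7, Ccl12 and Ly86, which microglia express, were each seen in 26 to 45 other ependymal cells, and Lrp1b and Rbp2 in 96 and 88.

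**Figure D3:**
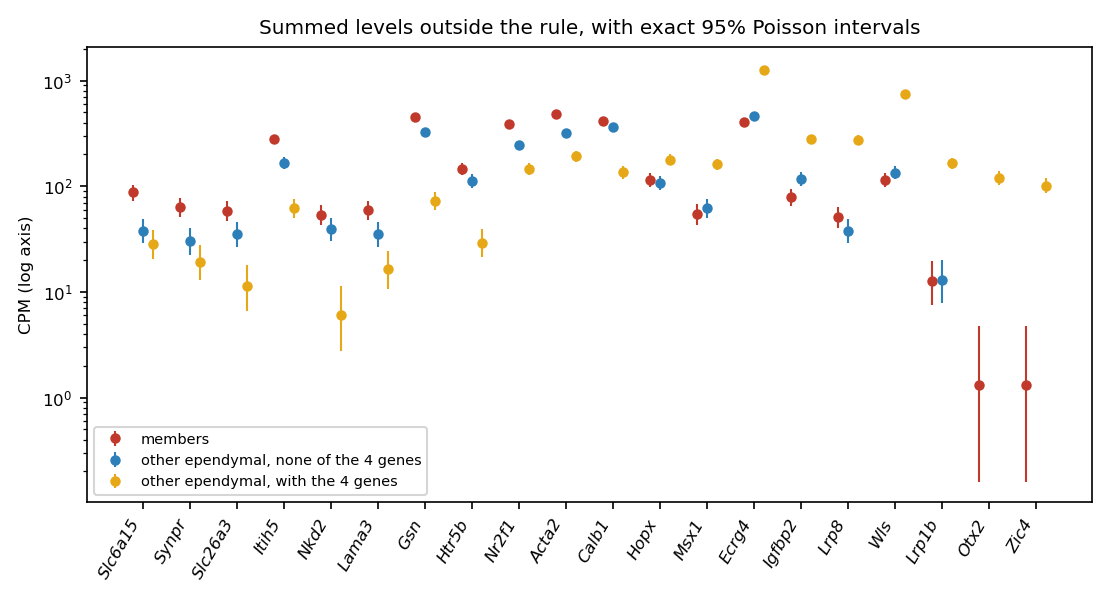
Summed levels in CPM on a log axis, with exact 95% Poisson intervals, in members (red), other ependymal cells with no UMI of Otx2, Zic4, Rspo3 or Zfp804b (blue) and other ependymal cells with one (yellow). Wls, Lrp8, Lrp1b and Ecrg4 are higher in yellow than in both other groups, Slc6a15 and Synpr are highest in members, and Otx2 and Zic4 are 0 in blue by construction and not drawn there.

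Levels were also set out along the marker share, the share of marker UMIs among the UMIs of both gene sets. This share is built from the rule's own genes, so it redraws the split of members and other cells and is no separate support. Cells with at least 5 UMIs of both sets together were put in 5 bins, from 0 to 0.1, 0.1 to 0.25, 0.25 to 0.5, 0.5 to 0.75 and 0.75 to 1, with 139, 74, 151, 178 and 55 cells. All members counted here lie in the last 2 bins, as the rule requires. Gsn was at 86.0, 158, 330.3, 421 and 466 CPM from the lowest to the highest bin. Wls was at 767, 462, 194, 108 and 127 CPM. Ecrg4 was at 1371, 774, 579.9, 410.4 and 353 CPM. Htr5b peaked in the fourth bin, at 9.66, 60.7, 130.4, 156 and 92.7 CPM. The water channel Aqp4, at 489.6, 516, 450.4, 488 and 509.6 CPM, and the axonemal dynein Dnah12, at 897, 899.9, 859, 979 and 1138 CPM, varied much less. The bins share the genes of the rule, and the middle bin held no member, so Gsn, Calb1 and Itih5 were already above the lowest bin outside the members.

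**Figure D4:**
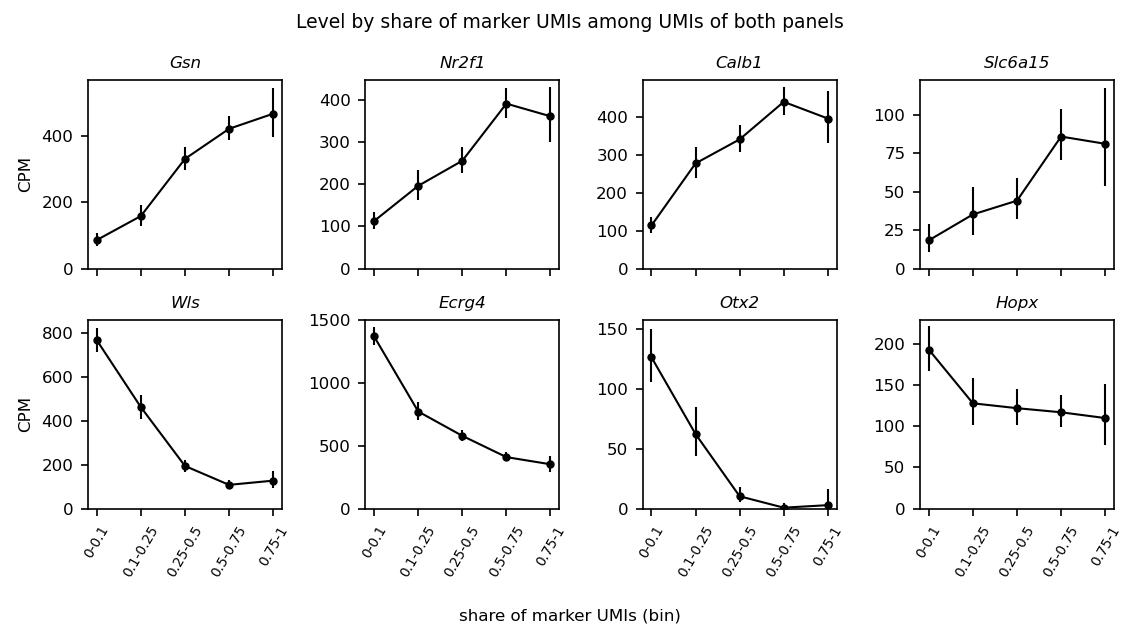
Level in CPM with exact 95% Poisson intervals in 5 bins of the share of marker UMIs among the UMIs of both gene sets, for ependymal cells with at least 5 such UMIs. Gsn, Nr2f1, Calb1 and Slc6a15 are low at the left and high at the right, Wls, Ecrg4 and Otx2 the reverse, and Hopx is highest in the first bin.

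By the gene lists, few genes differed by 2-fold between members and other ependymal cells. A list gene counted as measured from a sum of 10 UMIs over the compared groups, and as higher or lower from 2-fold with an interval that left out 1. Over all 12751 genes measured, 246 (1.93%) were higher, 215 (1.69%) lower, and the median log2 ratio was 0.04. Of 26 patterning factors, 6 were lower (among them Otx2, Zic4, Zic1, Lmx1a and Msx1) and 0 higher, with a median of -0.18. The 254 cells were chosen to lack Otx2 and Zic4, so these 2 genes were left out there and part of the result was fixed by that choice. Against the 254 cells 0 of 22 were lower and 1, Tox, was higher, where 1.4% of all genes were higher and 1.86% lower. Of 35 secreted proteins and peptides, 5 were lower with a median of 0.04, among them Igfbp2 at 78.8 CPM in members and 198 CPM in other ependymal cells. Against the 254 cells 1 of 33 was lower and 1 higher, and the Igfbp2 ratio was 0.67 (0.53 to 0.85), against 0.40 (0.32 to 0.49). None of the 37 motile cilia genes was called, with a median of 0.12. The same held for 10 intermediate filament genes at a median of -0.06, 19 oxidative phosphorylation genes at -0.17, 27 interferon genes at -0.24 and 26 immediate early genes at -0.19. Of 35 ion and water transport genes, with a median of 0.13, Car2 and Car4 were higher and Clic6 lower, and of 21 synaptic adhesion genes, with a median of 0.30, Lrrn1 and Slitrk2 were higher, and 2 genes, among them Lrrtm3, were lower.

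Against astrocytes the contrast was broad. Of 5744 genes at 50 CPM or more in the higher group, 1376 (24%) were at least 2-fold higher in members and 981 (17.1%) lower. By the list rule 2264 (18.9%) of 11950 genes were higher and 1622 (13.6%) lower, with a median log2 ratio of 0.07. Astrocytes had fewer UMIs per cell and more mitochondrial UMIs than members, and the part of this in the values was not tested.

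Cilia genes were all higher in members, 37 of 37. Their median log2 ratio was 4.94, or 5.10 with 0 UMIs in astrocytes taken as 3. Dnah12, an axonemal dynein heavy chain, had 1034 CPM in members, against 3.41 CPM in astrocytes. Tekt1, a tektin of the ciliary microtubules, had 317 CPM in members and 6.82 CPM in astrocytes, and Hydin, a protein of the central pair, 591 CPM and 8.52 CPM. Cfap44 had 743 CPM in members and 32.4 CPM in astrocytes, and Drc1, of the dynein regulatory complex, 276 CPM and 22.2 CPM. The transport genes Ift81 and Ift172, used by primary cilia too, had the smallest ratios of these, at 2.41 (1.84 to 3.20) and 3.62 (2.27 to 6.06). Among leading genes with 0 UMIs in astrocytes, Ankfn1 was at least 88.9-fold, Frmpd2 at least 81.4-fold and Calb1 at least 80.9-fold higher in members, with 3 UMIs over the group taken for 0.

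Promoters of some of these cilia genes, picked because they hold GTTGCCA, are shown because RFX factors bind a half-site of that spelling. The sequences are from RefSeq, build GRCm38.p6, 150 bases before the gene's start, in the gene's direction, with GTTGCCA or its reverse complement in capitals.
Drc1 (chr5:30281243-30281392, plus strand): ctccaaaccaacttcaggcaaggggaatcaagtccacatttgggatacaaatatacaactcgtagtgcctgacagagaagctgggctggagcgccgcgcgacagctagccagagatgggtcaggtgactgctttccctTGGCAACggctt
Hydin (chr8:110266827-110266976, plus strand): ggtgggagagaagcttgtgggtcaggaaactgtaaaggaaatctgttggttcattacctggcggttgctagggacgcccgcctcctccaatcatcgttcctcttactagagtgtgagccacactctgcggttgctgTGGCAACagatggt
Tekt1 (chr11:72361883-72362032, minus strand): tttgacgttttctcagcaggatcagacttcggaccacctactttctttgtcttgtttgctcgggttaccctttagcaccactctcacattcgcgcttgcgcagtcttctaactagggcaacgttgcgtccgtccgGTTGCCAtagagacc
Cfap44 (chr16:44394649-44394798, plus strand): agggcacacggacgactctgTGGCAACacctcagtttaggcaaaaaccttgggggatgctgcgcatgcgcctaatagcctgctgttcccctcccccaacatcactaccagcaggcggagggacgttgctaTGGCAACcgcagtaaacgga
In the window from 250 bases before to 50 after the start, searched on both strands, 6 of 36 promoters of the list (16.7%, covering 32 of its 40 genes) held GTTGCCA, against 4.38% of 32851 promoters in the table. The shorter GTTGCC, which GTTGCCA contains, was in 12 of the 36 (33.3%), against 12.5% of all. The 5 promoters of 3 of the 4 marker genes held neither.

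Among the factors of multiciliated cells, 9 of 18 were higher in members and 1 lower, at a median log2 ratio of 0.75. Myb, which acts early in multiciliated cell formation, had 184 CPM in members and 0 UMIs in astrocytes, and Trp73, the p73 factor, 66.9 CPM and 0 UMIs. Rfx2 had 116 CPM in members and 30.7 CPM in astrocytes, whereas Rfx3 was at 503 CPM and 358 CPM, a ratio of 1.41 (1.20 to 1.65). Of 10 intermediate filament genes 6 were higher and 1 lower, at a median of 3.07, or 2.003 with 0 taken as 3 UMIs. The simple keratins Krt18, Krt8 and Krt19 had 94.7, 67.6 and 21.9 CPM in members and 0 UMIs in astrocytes, and Nes had 114 CPM in members and 5.11 CPM in astrocytes. Gfap was lower in members, at 274 CPM, against 1273 CPM in astrocytes.

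Several further lists held more genes lower than higher in members. Of 17 cholesterol synthesis genes 15 were lower and 0 higher, and the list's median was -2.23 on the log2 scale. Msmo1, a sterol oxidase, had 48.4 CPM in members and 349 CPM in astrocytes, and Hmgcs1, an early enzyme of the pathway, 58.3 CPM and 274 CPM. Of 21 synaptic adhesion genes 14 were lower at a median of -1.54, among them the adhesion molecule Nrcam at 19.9 CPM in members and 641 CPM in astrocytes. Of 24 calcium, cGMP and neuropeptide genes 12 were lower and 2 higher at a median of -1.03, and the glutamate receptor Gria2 was at 0 UMIs in members, at least 223-fold lower than the 443 CPM in astrocytes. Of 18 FGF and EGF pathway genes 8 were lower and 2 higher at a median of -0.63, among them the receptors Fgfr3, at 59.0 CPM in members and 530.0 CPM in astrocytes, and Egfr, at 19.9 CPM and 215 CPM. Of 14 Notch pathway genes 6 were lower, Hes5 with 1 UMI in members and 70 in astrocytes, and 3 were higher, at a median of -0.34.

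Early response genes and genes of tissue dissociation, which cells also switch on while tissue is taken apart, were higher in members. Of 26 such genes 23 passed 2-fold upward and 0 downward, and their median was 2.38 on the log2 scale. Fos had 1710 CPM in members and 297 CPM in astrocytes. In other ependymal cells Fos was at 2186 CPM. Of 27 interferon genes 8 were higher and 1 lower at a median of 0.53, among them Isg15 at 609 CPM in members and 256 CPM in astrocytes, and none of 19 oxidative phosphorylation genes was called, at a median of -0.23.

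**Figure D5:**
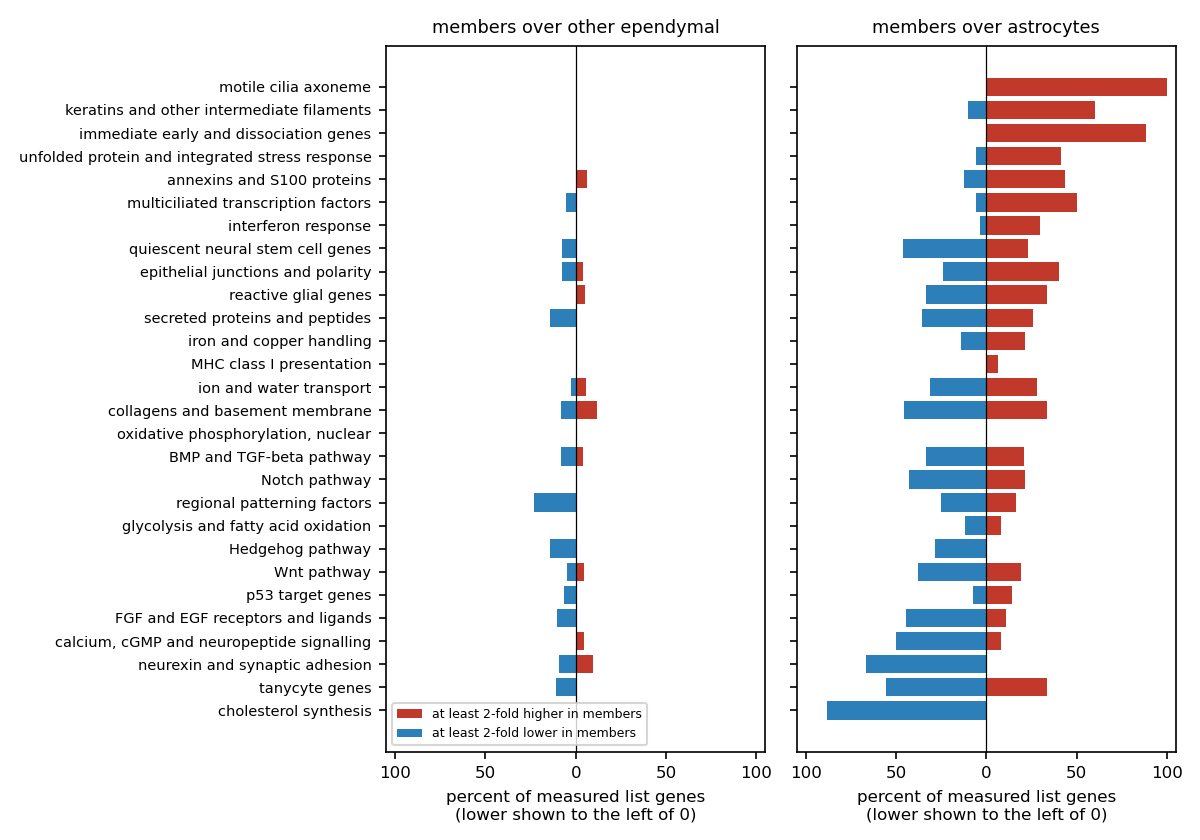
Percent of the measured genes of each list that were at least 2-fold higher (red, right) or lower (blue, left) in members, against other ependymal cells in the left panel and astrocytes in the right panel. Bars in the left panel are short, with 6 of 26 patterning factors the longest, while in the right panel cilia genes reach 37 of 37 and cholesterol synthesis 15 of 17.

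Hopx (ENSMUSG00000059325), the homeodomain-only protein that the vector targets, had 175 UMIs or 116 CPM (99.4 to 134) in members, against 434 UMIs or 142 CPM in other ependymal cells, 508 CPM in astrocytes and 9.82 CPM in microglia. Its ratio to other ependymal cells was 0.82 (0.68 to 0.98), and to the 254 cells without the 4 genes it was 1.08 (0.87 to 1.35). Within members, those with a Col6a5 UMI had 136 CPM of Hopx, against 83.8 CPM in those without, a ratio of 1.62 (1.16 to 2.31). Col6a5 is a gene of the rule, and members with it also had more of the opposing gene Plac9, at 839 CPM against 631 CPM. The part of the rule in this Hopx ratio was not tested. Without a library that lacks the vector the size of any knockdown cannot be given.

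Few members showed a reporter. EGFP was seen in 13 of 229 members, 5.68% (3.06 to 9.51), in 34 of 432 other ependymal cells (7.87%), in 2 of 140 astrocytes and in 1 of 3033 microglia. tdTomato was seen in 16 members, 6.99% (4.05 to 11.1), in 24 other ependymal cells (5.56%), in 29 of 140 astrocytes (20.7%) and in 30 of 3033 microglia (0.989%). Thinned to 2000 UMIs, with the groups kept, EGFP was seen in 3.21% of members and 2.43% of other ependymal cells. Both reporters were above the microglial share in members, and the intervals of members and other ependymal cells overlapped. Members with an EGFP UMI, 13 cells, had 4 Hopx UMIs, or 41.6 CPM (11.3 to 106), against 121 CPM (104 to 141) in members without one. These intervals overlapped. In other ependymal cells Hopx was at 76.0 CPM (47.6 to 115) with EGFP and 149 CPM (135 to 164) without. Members with a tdTomato UMI had 124 CPM of Hopx (66.2 to 213), against 115 CPM (98.2 to 135) without. The cause of these values was not tested.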

How the data were processed

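The deposited matrix holds UMI counts per gene and barcode. According to the submitters' processing notes, the authors used GRCm39 and Cell Ranger 8.0.1. It holds 6672 barcodes, 21750 features and 41915122 UMIs. From these counts, cells were gated as described, and UMIs were summed per group and scaled to the group's sum. Levels have exact 95% Poisson intervals, ratios exact binomial ones and shares Clopper-Pearson ones. A group at 0 was set to 3 UMIs for a bound. Log2 ratios in lists add 0.5 UMI. The members and gene lists were chosen with earlier results of these data known. Of 739 list entries, 9 were not matched. Genes named are the 15 with the largest ratio in each direction at 50 CPM or more and at least 2-fold with intervals apart, list genes with large ratios, Hopx, the reporters and the markers; not every one is reported. Doublets were called with Scrublet in scanpy 1.11.5 at an expected rate of 0.05. The gene comparison was run on simulated group sums with counting error only, which checks the code and cannot show the effect of spread between cells. Python 3.11.15, numpy 2.4.6, scipy 1.17.1 and pandas 2.3.3 were used. Alternatives varied the cell filters, doublets, gate thresholds, depth, weighing of cells, lowest CPM and the cells compared.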

Additional observations from a re-analysis of the deposited data

How the results depend on the processing

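The counts of genes 2-fold higher or lower in members than in other ependymal cells, 29 and 30, were 56 and 57 with cells thinned to 2000 UMIs and gated again, 85 and 80 from 20 CPM, and 64 and 48 with Plac9 left out of the opposing genes. With cells weighed equally, 19 genes were lower. Against astrocytes, 1491 genes were lower from 20 CPM, against 981. Without Plac9, 449 cells were members, 67.9% of ependymal cells against 34.6%, and 10 of the 29 higher and 15 of the 30 lower genes were shared with the main call. The Hopx ratio of 0.82 was 1.02 (0.69 to 1.48) with thinned cells. Against cells without the 4 genes it was 1.08 (0.87 to 1.35), and both of these intervals included 1. Without Plac9 the Hopx ratio was 0.57. The EGFP share of 5.68% was 2.72% in thinned cells gated again. The cause of these changes was not tested, except that a lower CPM limit tests more genes. With little RNA of other types, 16 of the 29 and 17 of the 30 genes were shared. Alternatives on Plac9, on other RNA and on the 4 genes were chosen after the data were seen. Every other alternative run gave a value within 1.5 times a count or within the interval of a share or ratio. No paired analysis was possible because each group holds 1 library. Depth limits low genes: 50.3 CPM of Prox1 rests on 76 UMIs in members.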
